A study of Mus musculus with 2 samples.

Results

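The core circadian clock genes are 10 genes of the cell-autonomous daily oscillator, Clock, Arntl, Per1, Per2, Per3, Cry1, Cry2, Nr1d1, Nr1d2 and Dbp, found by symbol among the 35529 genes of an RNA-seq table from mouse colon. The table sets colon adenomas that formed in wild-type C57BL/6 mice after AOM/DSS (azoxymethane, which mutates colonic DNA, together with dextran sodium sulfate, a polymer that causes colitis) beside colon of wild-type C57BL/6 animals that received neither agent. RNA of 6 individuals was pooled for each group and each pool gave 1 library, called the adenoma pool and the control pool here. Animal age and sex, the time of day at collection and the light schedule are not given in the sources used here. All 10 genes were measured above 0 in both pools. The genes were chosen by name with this comparison already known, so their values are described and not tested, and with 1 library a group no difference has a replicate check.

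The mammalian clock is a feedback loop of transcription. CLOCK and BMAL1, the product of Arntl, bind E-boxes in DNA and activate the Period and Cryptochrome genes, whose proteins return to the nucleus and repress CLOCK and BMAL1. In a further loop the REV-ERB receptors, encoded by Nr1d1 and Nr1d2, repress Arntl through ROR response elements, while DBP carries the rhythm to output genes through D-boxes. In the gut the clock runs in epithelial cells and is known to time digestion, transport and cell renewal. Transcripts of Arntl and of the Dbp, Nr1d1 and Period group peak at opposite times of day in mouse tissues.

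Every core clock gene had a lower RPKM (reads scaled to transcript length and to the size of the library) in the adenoma pool than in the control pool, and the sizes ran from 1.08-fold for Nr1d1 to 15.9-fold for Per2. In RPKM as deposited, the Period and Cryptochrome genes, the repressors of the loop, stood lowest relative to control. The activators Arntl and Clock were about 2-fold lower, and the REV-ERB genes and Dbp were less than 2-fold lower. Adjustment for transcript length, described below, did not keep this order by role in full. On the scale log2((adenoma RPKM + 1)/(control RPKM + 1)), 6 of the 10 genes were at least 2-fold lower and 0 were as much higher. For comparison, 16517 genes reached 1 RPKM in one pool or both, and of these 11.0% were at least 2-fold lower and 14.0% at least 2-fold higher. Among mRNA genes alone 13.1% were lower and 10.4% higher by that measure. A negative log2 fold change, found for 10 of 10 core clock genes, was found for 50.8% of the 16517 genes and 58.1% of the mRNA genes. The median log2 fold change of the 10 genes was -1.14, beside -0.02 over all 16517 genes and -0.17 over the 12910 mRNA genes among them. Fewer cells of a type and less RNA per cell cannot be told apart in bulk RNA. The 95% intervals beside folds are exact binomial intervals on reads recovered from the RPKM values, and they cover counting error only, not differences between animals or library preparations. For 9 of the 10 genes the interval left out equality, but so it did, on the lower side, for 51.8% of the mRNA genes with a known length, so at this depth such an interval sets no gene apart.

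**Figure D1:**
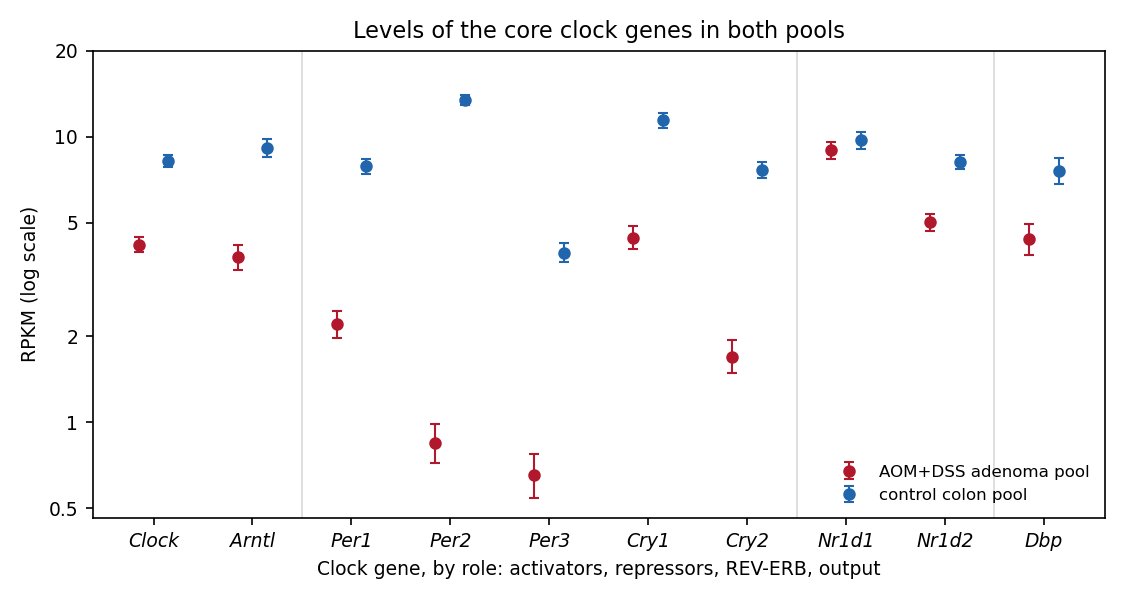
RPKM of each core clock gene (log axis) in the adenoma pool (red, left) and the control pool (blue, right), ordered by role, 1 library each; bars are exact 95% Poisson intervals for counting error. The control values lie between 3.93 and 13.5 RPKM, while the adenoma values spread from 0.655 to 8.97 RPKM, with Per2 and Per3 at the bottom and Nr1d1 almost level with its control value.

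Over all mRNA genes, the log2 fold change depended on transcript length. Its median was 0.79 in the tenth with the shortest transcripts and -0.76 in the tenth with the longest. The lengths recovered from the core clock RPKM values ran from 1678 bases for Dbp to 7478 for Clock. Each log2 fold change is therefore also given with this trend subtracted. The step itself used the longest GENCODE transcript of each gene. After that step 6 of the 10 were again at least 2-fold lower, against 11.2% of genes, and 0 were higher, against 5.70%. All 10 were below 0, against 62.0%. Of the 6, 5 were the same genes. Arntl, at -0.92, was no longer among them and Dbp, at -1.04, was. With the lengths recovered from the RPKM values instead, 7 of the 10 were at least 2-fold lower, against 11.2% of genes. Arntl, at -1.14, and Dbp, at -1.13, then lay below Per3, at -1.11, and close to Per1, at -1.16, and Cry1, at -1.20. The repressors thus no longer all stood lowest, though Per2, at -2.52, and Cry2, at -1.51, did. The median of the 10 was -1.07 after the step, beside -0.19 over the 15486 genes with a length.

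**Figure D2:**
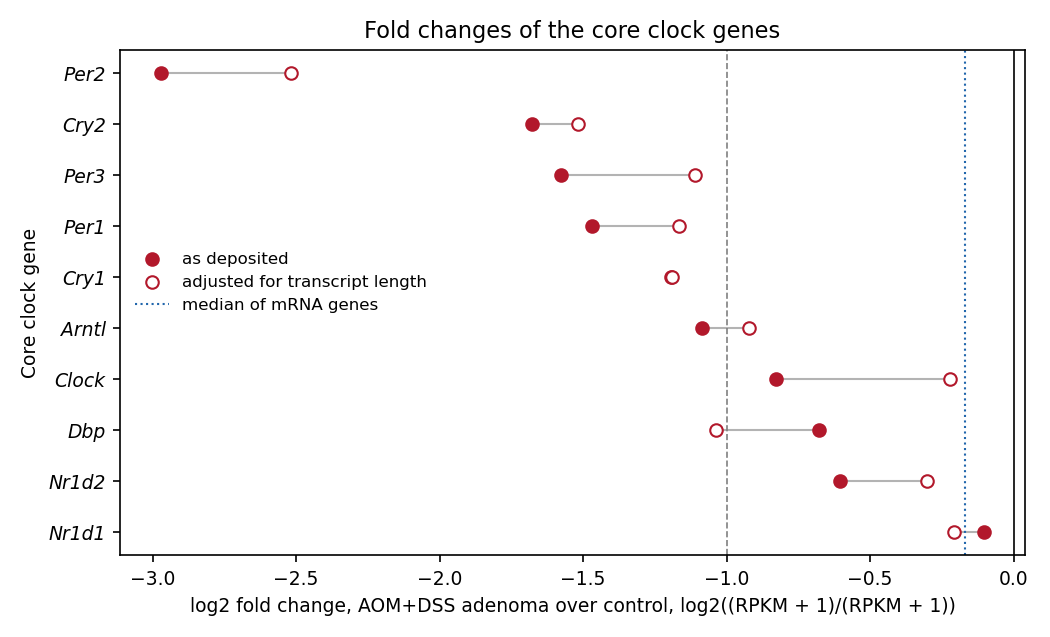
log2 fold change (adenoma over control, 1 RPKM added to both) of the 10 core clock genes as deposited (filled) and adjusted for transcript length (open); the dashed line is 2-fold lower and the dotted line the median of mRNA genes, -0.17. Per2 lies furthest from 0 at -2.97, and the adjustment brings Clock to -0.22, close to that median.

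The Period genes encode the proteins that accumulate, enter the nucleus with the Cryptochromes and shut off CLOCK and BMAL1. Per2 (ENSMUSG00000055866.9, chromosome 1, 91415982 to 91459324 on the minus strand, GENCODE M21 on GRCm38) stood at 0.847 RPKM in the adenoma pool, from 164 reads, and at 13.5 RPKM in the control pool, from 2322 reads. It was 15.9-fold lower (13.6 to 18.7), with a log2 fold change of -2.97 and -2.52 after length adjustment. Per2 was the most abundant of the 10 genes in the control pool and the ninth in the adenoma pool. Its log2 fold change was the 21st lowest of the 12910 mRNA genes.

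Per3 (ENSMUSG00000028957.12, chromosome 4, 151003652 to 151044665, minus strand) was the least abundant in both pools, at 0.655 RPKM in the adenoma pool and 3.93 RPKM in the control pool, 6.01-fold lower (4.98 to 7.33). Per1 (ENSMUSG00000020893.17, chromosome 11, 69095217 to 69109960, plus strand), the Period gene that also responds within minutes to light and glucocorticoid signals, was at 2.20 RPKM in the adenoma pool and 7.87 RPKM in the control pool, 3.57-fold lower (3.16 to 4.05). Their log2 fold changes were -1.58 and -1.47, or -1.11 and -1.16 after length adjustment. The 3 Period genes together summed to 3.71 RPKM in the adenoma pool and 25.3 RPKM in the control pool, which was 10.2% of the summed RPKM of the 10 genes in the adenoma pool and 29.0% in the control pool. The order of Per1 and Per2 differed between the pools. Per1 was 2.60 times Per2 (2.15 to 3.16) in the adenoma pool and 0.585 times Per2 (0.544 to 0.629) in the control pool.

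The promoter stretches of Per1 and Per3 are shown because they carry the letters that the clock factors read, an E-box for Per1 and a pair of D-boxes for Per3. They are the 250 bases before a RefSeq start on GRCm38.p6, 5′ to 3′ on the gene's strand, at chr11:69098699-69098948 (plus) for 1 of the 2 starts of Per1 and at chr4:151044666-151044915 (minus) for Per3. The window at the other Per1 start held none of the motifs. Capitals mark the E-box CACGTG in Per1, which begins at position -166, and the D-box TTANGTAA in Per3, which begins at positions -205 and -158; positions count from the start site, with -1 for the base before it.
Per1: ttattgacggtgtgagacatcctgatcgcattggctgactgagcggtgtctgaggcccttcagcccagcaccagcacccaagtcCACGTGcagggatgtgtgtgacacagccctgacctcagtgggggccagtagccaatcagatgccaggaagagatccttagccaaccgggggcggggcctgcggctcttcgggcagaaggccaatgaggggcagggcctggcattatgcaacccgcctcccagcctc
Per3: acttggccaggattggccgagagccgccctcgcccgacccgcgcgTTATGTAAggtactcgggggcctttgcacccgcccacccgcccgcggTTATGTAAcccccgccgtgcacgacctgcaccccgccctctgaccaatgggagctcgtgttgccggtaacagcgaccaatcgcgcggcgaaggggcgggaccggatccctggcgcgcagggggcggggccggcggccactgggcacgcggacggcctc

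The Cryptochromes are the strongest repressors of CLOCK and BMAL1 in the loop. Cry2 (ENSMUSG00000068742.11, chromosome 2, 92403646 to 92434043, minus strand) was at 1.70 RPKM in the adenoma pool and 7.64 RPKM in the control pool, 4.49-fold lower (3.88 to 5.22). Cry1 (ENSMUSG00000020038.10, chromosome 10, 85131700 to 85185064, minus strand), whose transcript peaks later than those of the Period genes, was at 4.43 RPKM in the adenoma pool and 11.4 RPKM in the control pool, 2.57-fold lower (2.30 to 2.88). The log2 fold changes were -1.68 for Cry2 and -1.19 for Cry1, and -1.52 and -1.19 after length adjustment. Cry1 exceeded Cry2 in both pools, by 2.61 times (2.22 to 3.07) in the adenoma pool and 1.49 times (1.36 to 1.63) in the control pool. Exons of Cry2 overlap those of the antisense transcript D930015M05Rik over 4.67% of their bases. That transcript stood at 0.0633 RPKM in the adenoma pool and 1.24 RPKM in the control pool, and no source used here says whether reads were counted by strand.

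The promoter of Cry1 holds both forms of E-box close together, and that of Cry2 a single E′-box. Shown are the 250 bases before the RefSeq start on GRCm38.p6, chr10:85185055-85185304 (minus) for Cry1 and chr2:92434070-92434319 (minus) for Cry2. Capitals mark, in Cry1, an E′-box (CACGTT, seen here from its other strand as AACGTG) from position -79 and an E-box (CACGTG) from position -60, and in Cry2 an E′-box from position -166.
Cry1: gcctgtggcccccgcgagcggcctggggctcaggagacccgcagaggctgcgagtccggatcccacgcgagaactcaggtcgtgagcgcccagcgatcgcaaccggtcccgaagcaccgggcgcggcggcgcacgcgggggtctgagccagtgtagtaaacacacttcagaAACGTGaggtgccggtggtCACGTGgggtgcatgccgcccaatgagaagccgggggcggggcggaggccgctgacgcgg
Cry2: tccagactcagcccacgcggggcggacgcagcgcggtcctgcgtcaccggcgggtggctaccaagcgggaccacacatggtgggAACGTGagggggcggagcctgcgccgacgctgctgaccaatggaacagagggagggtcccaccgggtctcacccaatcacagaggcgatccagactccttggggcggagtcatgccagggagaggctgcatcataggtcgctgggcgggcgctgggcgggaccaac

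Arntl and Clock encode the activating pair, basic helix-loop-helix PAS proteins that bind E-boxes together. Arntl (ENSMUSG00000055116.8, chromosome 7, 113207465 to 113314126, plus strand), the one clock gene whose loss alone stops the rhythm in mice, was at 3.78 RPKM in the adenoma pool and 9.15 RPKM in the control pool, 2.42-fold lower (2.13 to 2.74). Clock (ENSMUSG00000029238.11, chromosome 5, 76209868 to 76304792, minus strand), which varies little over the day in most tissues, was at 4.20 RPKM in the adenoma pool and 8.22 RPKM in the control pool, 1.96-fold lower (1.81 to 2.12). Their log2 fold changes were -1.08 and -0.83. Clock is the longest of the 10 transcripts and its value became -0.22 after length adjustment. The length recovered for Arntl from its RPKM values, 2908 bases, is an estimate, as the annotation of the authors is not given. It is below the 3995 bases of the longest GENCODE transcript of Arntl. With the shorter length the adjusted value of Arntl was -1.14 in place of -0.92.

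Within each pool the balance of repressors to activators differed. The 5 Period and Cryptochrome genes summed to 9.84 RPKM in the adenoma pool and 44.3 RPKM in the control pool, 4.51-fold lower, while Arntl and Clock together summed to 7.98 RPKM in the adenoma pool and 17.4 RPKM in the control pool, 2.18-fold lower. The repressors made up 27.2% of the RPKM of the 10 genes in the adenoma pool and 50.9% in the control pool. Set against Arntl in the same pool, Per2 was at 0.224 times its RPKM (0.185 to 0.270) in the adenoma pool and 1.47 times (1.36 to 1.60) in the control pool. The ratio of Cry1 to Arntl was close in the pools, 1.17 (1.02 to 1.35) in the adenoma pool and 1.25 (1.14 to 1.37) in the control pool. Such ratios do not depend on the scaling of a library, though they can move with transcript length.

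The REV-ERB genes, which repress Arntl and Cry1 when haem is bound, were the members nearest to their control level before length adjustment. Nr1d1 (ENSMUSG00000020889.11, chromosome 11, 98767932 to 98775333, minus strand) was at 8.97 RPKM in the adenoma pool and 9.71 RPKM in the control pool, 1.08-fold lower (0.978 to 1.20), the 1 member whose interval took in equality. Nr1d2 (ENSMUSG00000021775.11, chromosome 14, 18204054 to 18239127, minus strand) was at 5.02 RPKM in the adenoma pool and 8.15 RPKM in the control pool, 1.63-fold lower (1.48 to 1.78). After length adjustment their log2 fold changes were -0.21 and -0.30, close to the -0.19 over all genes, and Clock, at -0.22, lay between them. Nr1d1 was the most abundant core clock gene in the adenoma pool, at 2.37 times Arntl (2.09 to 2.69), against 1.06 times (0.960 to 1.17) in the control pool. The last exons of Nr1d1 and Thra, a thyroid hormone receptor gene on the opposite strand, overlap over 8.55% of the exonic bases of Nr1d1, and Thra stood at 10.1 RPKM in the adenoma pool and 16.3 RPKM in the control pool. Without strand, reads in that overlap cannot be told apart.

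The promoter of Nr1d1 is shown because it too carries an E′-box, although Nr1d1 differed least. It is chr11:98775378-98775627 (minus strand, GRCm38.p6), with the E′-box in capitals from position -28, counted from the RefSeq start.
Nr1d1: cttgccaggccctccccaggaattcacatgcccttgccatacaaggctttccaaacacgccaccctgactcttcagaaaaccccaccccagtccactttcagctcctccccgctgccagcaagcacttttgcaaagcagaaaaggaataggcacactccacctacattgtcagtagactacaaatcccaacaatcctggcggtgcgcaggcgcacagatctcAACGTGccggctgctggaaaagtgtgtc

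Of the 10 genes all but Per2 matched the RefSeq promoter table, whose windows run over 300 bases from 250 before the start, with 13 windows in all because some genes have several starts. Both strands were searched for the E-box CACGTG, the E′-box CACGTT, the D-box TTANGTAA and the cores TAGGTCA and TGGGTCA of the ROR response element. An E-box was found in windows of Cry1 and Per1, an E′-box in windows of Cry1, Cry2 and Nr1d1, a D-box in Per3 and a ROR core in Arntl, from position 31 after one of its starts. Over all 32851 windows in the RefSeq table, 7.15% held the E-box, 4.68% the E′-box, 2.32% the D-box and 6.45% a ROR core. These are matches of letters in a short window, and clock elements that lie further away are not covered by it.

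Dbp (ENSMUSG00000059824.12, chromosome 7, 45705088 to 45710203, plus strand) encodes a PAR bZIP activator and is a direct E-box target with one of the widest daily swings in mouse tissues. It was at 4.38 RPKM in the adenoma pool, from 244 reads, and at 7.60 RPKM in the control pool, from 377 reads, 1.73-fold lower (1.47 to 2.05). Its transcript is the shortest of the 10, and its log2 fold change of -0.68 became -1.04 after length adjustment. The ratio of Dbp to Arntl was 1.16 (0.981 to 1.37) in the adenoma pool and 0.831 (0.733 to 0.941) in the control pool. Exons of Dbp overlap those of the sphingosine kinase gene Sphk2 on the opposite strand over 18.0% of their bases, and Sphk2 was at 9.67 RPKM in the adenoma pool and 19.0 RPKM in the control pool.

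The order of the 10 genes by RPKM, which is scaled to length, was more spread in the adenoma pool. The highest was 13.7 times the lowest there and 3.42 times in the control pool. In the adenoma pool the order was Nr1d1, Nr1d2, Cry1, Dbp, Clock, Arntl, Per1, Cry2, Per2 and Per3, and the neighbours from Nr1d2 to Arntl, as well as Per2 and Per3, had overlapping 95% counting intervals. In the control pool it was Per2, Cry1, Nr1d1, Arntl, Clock, Nr1d2, Per1, Cry2, Dbp and Per3, with overlapping intervals between neighbours from Nr1d1 to Dbp. Among all mRNA genes the core clock genes lay at percentiles from 42.6 to 75.2 of RPKM in the adenoma pool and from 60.1 to 79.5 in the control pool. The mRNA genes with the pattern most like Per2 over the 2 pools, by the distance of log2(RPKM + 1), were Trpm6 at 0.764 RPKM in the adenoma pool and 14.3 in the control pool (distance 0.102), Rims4 at 0.761 RPKM in the adenoma pool and 12.5 in the control pool (0.122) and Tppp at 0.968 RPKM in the adenoma pool and 15.5 in the control pool (0.215).

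**Figure D3:**
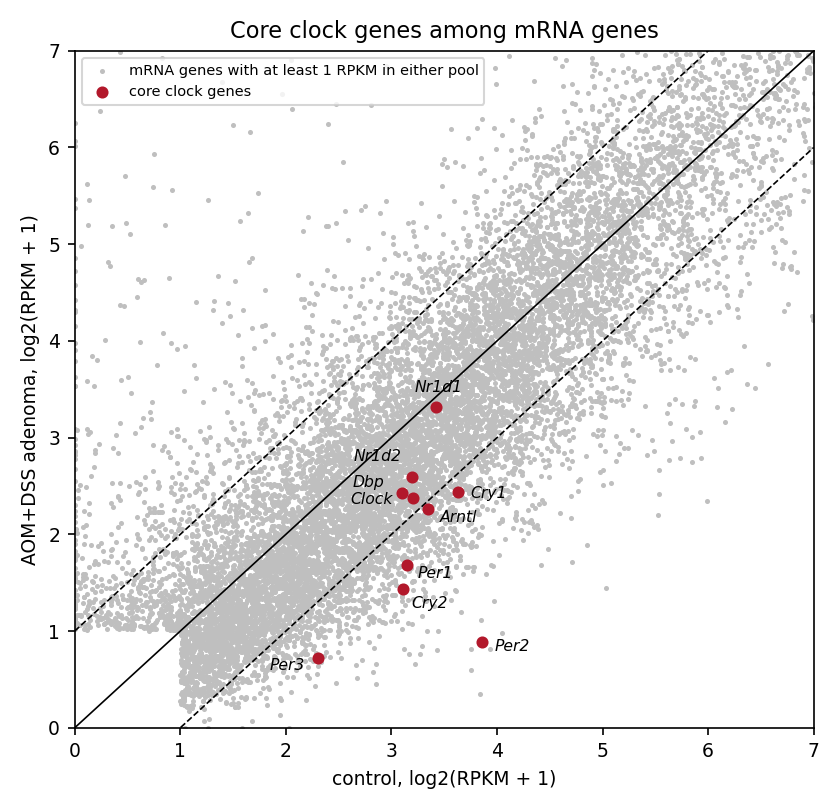
log2(RPKM + 1) of mRNA genes that reached 1 RPKM (grey) and of the core clock genes (red), with the adenoma pool on the vertical and the control pool on the horizontal axis; axes stop at 7, the solid line is equality and the dashed lines are 2-fold. All 10 clock genes lie below the solid line, Per2 far below the lower dashed line with 0.847 against 13.5 RPKM and Nr1d1 just under equality.

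Partners of the core loop, 10 genes that act beside it, were mixed. Of the 7 that reached 1 RPKM, 2 were at least 2-fold lower, against 11.0% of all genes, and 1 was at least 2-fold higher, against 14.0%. Their median log2 fold change was -0.76, and -0.81 after length adjustment. Tef, a PAR bZIP activator like Dbp, was at 6.15 RPKM in the adenoma pool and 23.9 RPKM in the control pool, 3.88-fold lower (3.60 to 4.19). Npas2, which can stand in for Clock, was at 1.02 RPKM in the adenoma pool and 3.89 RPKM in the control pool, 3.83-fold lower (3.16 to 4.64).

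Arntl2, the paralog of Arntl and also a partner of CLOCK, was higher. It was at 1.72 RPKM in the adenoma pool, from 99 reads, and 0.292 RPKM in the control pool, from 15 reads, 5.88-fold higher (3.40 to 10.9), with a log2 fold change of 1.07 that became 0.83 with libraries rescaled to equal sums. It reached 0.453 times the RPKM of Arntl in the adenoma pool against 0.0319 times in the control pool. Nfil3, a repressor at D-boxes, was at 7.57 RPKM in the adenoma pool and 6.93 RPKM in the control pool, with a log2 fold change of 0.11 that became -0.23 with libraries rescaled to equal sums and -0.18 after length adjustment. Dbp and Tef were thus at 0.579 and 0.812 times the RPKM of Nfil3 in the adenoma pool, against 1.10 and 3.44 times in the control pool. Among the E-box repressors, Bhlhe40 was at 22.0 RPKM in the adenoma pool and 39.8 RPKM in the control pool, Bhlhe41 at 0.297 RPKM in the adenoma pool and 1.19 RPKM in the control pool, and Gm129, now called Ciart, at 0.551 RPKM in the adenoma pool and 1.58 RPKM in the control pool. All 3 had log2 fold changes between -0.83 and -0.73, with 1 RPKM added to both pools. Without it Bhlhe40 was 1.81-fold lower (1.72 to 1.91), Bhlhe41 4.01-fold (3.02 to 5.47) and Gm129 2.86-fold (1.76 to 4.61). After length adjustment their log2 fold changes were -0.81, -0.27 and -1.05. The remaining 3 did not reach 1 RPKM. Hlf, another PAR bZIP activator, had 23 reads in the adenoma pool and 152 in the control pool, 7.42-fold lower (4.77 to 12.1), Rora had 0.476 RPKM in the adenoma pool and 0.842 RPKM in the control pool, and Rorb had 1 read in the adenoma pool and 13 in the control pool, a ratio of 0.0685 (0.00161 to 0.456).

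Genes whose products modify the clock proteins had a median near that of all mRNA genes. They are kinases, ubiquitin ligase parts and chromatin factors, and 23 of 24 reached 1 RPKM. Of these 3 were at least 2-fold lower and 1 higher, beside 11.0% and 14.0% of all genes, with a median log2 fold change of -0.32 and -0.10 after length adjustment. The 3 were the deubiquitinase Usp2, itself a cycling transcript in many mouse organs, at 1.23 RPKM in the adenoma pool and 8.81 RPKM in the control pool (7.19-fold lower, 6.07 to 8.57), the histone methyltransferase gene Mll1, now called Kmt2a, at 0.999 RPKM in the adenoma pool and 4.64 RPKM in the control pool, and Prkaa2, a catalytic subunit of AMP-activated kinase, at 1.58 RPKM in the adenoma pool and 5.69 RPKM in the control pool. The log2 fold changes of Mll1 and Prkaa2, both from long transcripts, became -0.89 and -0.79 after length adjustment. With it Usp2 and Csnk2b, at -2.00 and -1.17, were the 2 of 23 at least 2-fold lower, and 0 were higher. The ligase subunit Skp1a was at 195 RPKM in the adenoma pool and 85.7 RPKM in the control pool, 2.28-fold higher (2.19 to 2.37), with a log2 fold change of 1.18 that became 0.78 with equal sums and 0.77 after length adjustment. The casein kinase subunit Csnk2b, the most abundant of the list in the control pool, was at 94.2 RPKM in the adenoma pool and 113 RPKM in the control pool.

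Of 14 genes taken as outputs of the clock in mouse tissues, 11 reached 1 RPKM, 5 were 2-fold lower or more and 0 higher (11.0% and 14.0% of all genes), with a median of -0.82 and -0.88 after length adjustment. Fkbp5, a co-chaperone of the glucocorticoid receptor, was at 6.09 RPKM in the adenoma pool and 41.8 RPKM in the control pool, 6.87-fold lower (6.37 to 7.42). Tsc22d3, a mediator of glucocorticoid action, was at 11.6 RPKM in the adenoma pool and 36.2 RPKM in the control pool. Klf9, a Kruppel-like factor induced by glucocorticoids, was at 6.10 RPKM in the adenoma pool and 17.8 RPKM in the control pool. The cilium gene Cys1 was at 0.492 RPKM in the adenoma pool and 2.93 RPKM in the control pool. The transcript of the fatty acid elongase Elovl3 was listed at 0 in both pools.

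Targets known from mouse liver or intestine for the PAR bZIP factors Dbp, Tef and Hlf had 7 of 11 members at 1 RPKM or above, 4 at least 2-fold lower and 1 higher (11.0% and 14.0% of all genes), with a median of -1.94 and -2.25 after length adjustment. The drug efflux pump Abcb1a had the lowest log2 fold change of the list, -3.12, at 4.33 RPKM in the adenoma pool and 45.3 RPKM in the control pool. The peptide transporter Slc15a1 was at 1.004 RPKM in the adenoma pool and 9.10 RPKM in the control pool, 9.07-fold lower (7.39 to 11.2). The carboxylesterases Ces2c, at 11.3 RPKM in the adenoma pool and 65.7 RPKM in the control pool, and Ces2a, at 12.0 RPKM in the adenoma pool and 48.9 RPKM in the control pool, were also at least 2-fold lower; they are close paralogs whose reads may not be told apart. Cyp2b10, a cytochrome P450 with close paralogs, was higher, at 1.82 RPKM in the adenoma pool and 0.0362 RPKM in the control pool, where it rested on 2 reads (a ratio of 50.5, 13.6 to 421). The liver genes Cyp2a4, Cyp2a5 and Cyp7a1 were listed at 0 in both pools.

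Glucocorticoids reset peripheral clocks and induce Per1, so genes tied to them were set beside the clock. The list joins response genes with the receptor gene Nr3c1 and the corticosterone enzymes Hsd11b1 and Hsd11b2. Fkbp5, Tsc22d3 and Klf9 were counted among the outputs instead. Of 12 genes, all at 1 RPKM or above, 5 were 2-fold lower or more and 1 higher (11.0% and 14.0% of all genes), with a median of -0.62. After length adjustment 3 were lower and 0 higher (11.2% and 5.70% of all genes), with a median of -0.76, and the glucocorticoid receptor gene Nr3c1, at -0.81, was no longer among them. Nr3c1 was at 3.76 RPKM in the adenoma pool and 10.9 RPKM in the control pool, 2.90-fold lower (2.67 to 3.15). Hsd11b2, the enzyme that inactivates corticosterone in colonocytes, was at 39.5 RPKM in the adenoma pool and 273 RPKM in the control pool, 6.91-fold lower (6.62 to 7.22), and the sodium channel subunit Scnn1a at 7.17 RPKM in the adenoma pool and 39.5 RPKM in the control pool. The metallothionein Mt2 was at 179 RPKM in the adenoma pool and 46.4 RPKM in the control pool, 3.84-fold higher (3.55 to 4.16), and 0.95 on the log2 scale after length adjustment.

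**Figure D4:**
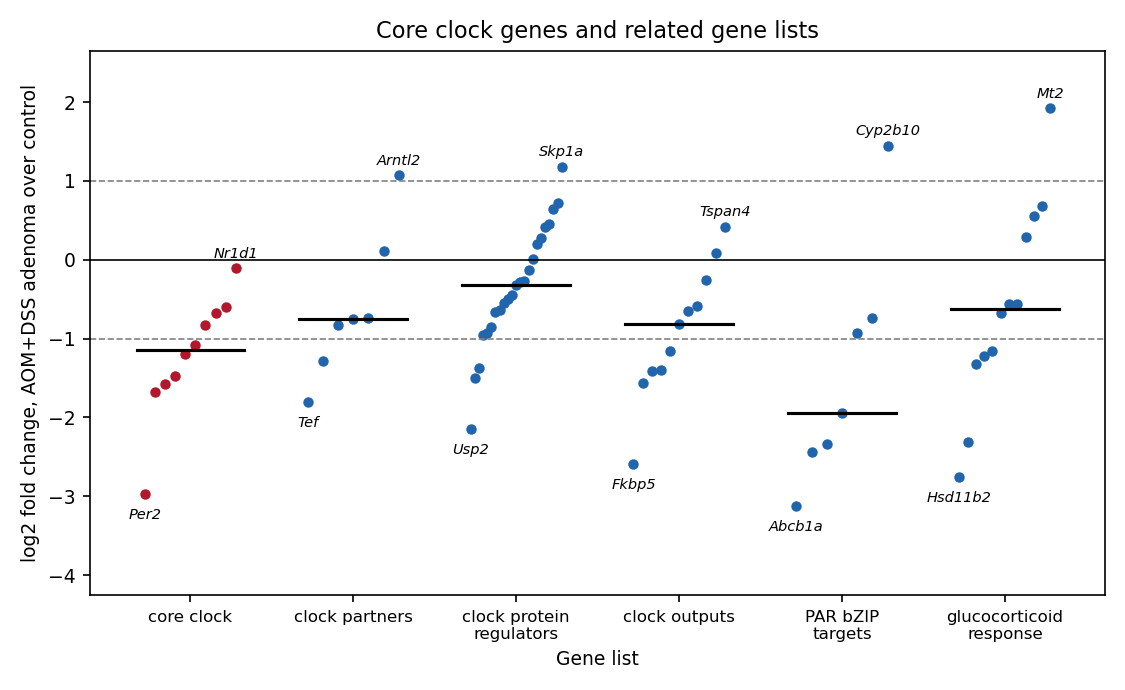
log2 fold change (adenoma over control, 1 RPKM added) of each gene that reached 1 RPKM in either pool, by list; dots are genes, black bars list medians and dashed lines 2-fold, with the lowest and highest gene of each list named. The core clock median is -1.14, the PAR bZIP targets lie lowest at -1.94 and the clock protein regulators nearest to 0 at -0.32.

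Cell type markers differed between the pools beside the clock genes. All 13 colon epithelium markers were above 0 in both pools, led by the keratin Krt8 at 2514 RPKM in the adenoma pool and 4237 RPKM in the control pool. Their sum was 6511 RPKM in the adenoma pool and 12028 RPKM in the control pool, and 9 of 13 were at least 2-fold lower, beside 11.0% of all genes. The other 4 were within 2-fold, among them Krt8. After length adjustment 11 of 13 were at least 2-fold lower, beside 11.2% of genes, with Krt8 at -1.07 and Krt19 at -1.25 on the log2 scale. Epcam was at 646 RPKM in the adenoma pool and 752 RPKM in the control pool. Krt18, the 1 marker above 0 before length adjustment, was at 483 RPKM in the adenoma pool and 327 RPKM in the control pool. The colonocyte genes Car4, a carbonic anhydrase, and Slc26a3, a chloride exchanger, had the lowest log2 fold changes, at 18.4 RPKM in the adenoma pool and 659 RPKM in the control pool for Car4 and 6.46 RPKM in the adenoma pool and 143 RPKM in the control pool for Slc26a3. The 10 smooth muscle markers summed to 1809 RPKM in the adenoma pool and 2220 RPKM in the control pool, with 5 at least 2-fold lower, or 3 after length adjustment, although Tagln, the most abundant, was at 597 RPKM in the adenoma pool and 558 RPKM in the control pool. The 7 fibroblast markers summed to 499 RPKM in the adenoma pool and 433 RPKM in the control pool, but 5 of 7 were below 0 with a median log2 fold change of -0.22, or 0.18 after length adjustment, and 0 were past 2-fold before that adjustment and 1 higher after it. The proteoglycan gene Dcn, at 249.99 RPKM in the adenoma pool and 145 RPKM in the control pool, accounted for the higher sum, and the other 6 summed to 248.98 RPKM in the adenoma pool and 287 RPKM in the control pool.

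The 11 leukocyte markers summed to 282 RPKM in the adenoma pool and 194 RPKM in the control pool, but their median log2 fold change was -0.22, with 6 of 11 below 0. The neutrophil gene S100a8, at 120 RPKM in the adenoma pool and 0.777 RPKM in the control pool, made the difference in the sum, and the other 10 summed to 162 RPKM in the adenoma pool and 193 RPKM in the control pool. Ly6g, also used as a neutrophil marker and the largest of those 10 in both pools, went the other way. It was at 83.2 RPKM in the adenoma pool and 113 RPKM in the control pool, where S100a8 was at 0.777 RPKM. Whether the Ly6g reads come from neutrophils was not tested. S100a8 and the T cell receptor gene Cd3g were the 2 of 11 at least 2-fold higher, beside 14.0% of all genes. Cd3e, of the same receptor complex as Cd3g, was level at 1.01 RPKM in the adenoma pool and 0.990 RPKM in the control pool. S100a8, Cd3g and Cd3e were picked out after their values were seen, as were Dcn, Epcam, Krt18, Car4, Slc26a3, Fabp4 and Cfd. Enteric neuron and glia markers were low, with 5 of 10 at 1 RPKM or above and a sum of 26.2 RPKM in the adenoma pool against 38.2 RPKM in the control pool. The 5 adipocyte markers summed to 61.2 RPKM in the adenoma pool and 45.9 RPKM in the control pool, of which Fabp4 made up 58.1 RPKM in the adenoma pool and 33.9 RPKM in the control pool. The other 4 summed to 3.01 RPKM in the adenoma pool and 12.0 RPKM in the control pool, with Cfd at least 2-fold lower and Plin1 and Lep listed at 0 in the adenoma pool. Of 8 markers of skeletal muscle or pancreas, Ctrb1, Prss1, Try4 and Amy2a5 were listed at 0 in both pools, and the sum of 302 RPKM in the adenoma pool and 335 RPKM in the control pool was nearly all Cela1. The part of these markers in the clock values was not tested. With 1 pool a group, cell makeup and time of collection cannot be told apart from AOM+DSS treatment.

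The direction of the 10 core clock genes was the same under every scaling tried. Each had a negative log2 fold change under all settings that gave it a value, 12 for each gene except Per3, which had 11. Per2 was at least 2-fold lower under all 12, while Nr1d1 and Nr1d2 were under 0 of 12 and Clock under 1 of 12. Changing the pseudocount, the filter or the gene set cannot reverse a sign, so those settings do not check direction. The scalings multiplied adenoma RPKM by 0.759 to 1.022, too little to reverse even Nr1d1, at 0.923 times its control RPKM. Only the length adjustments could have reversed a sign, and with them all 10 genes stayed below 0.

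**Figure D5:**
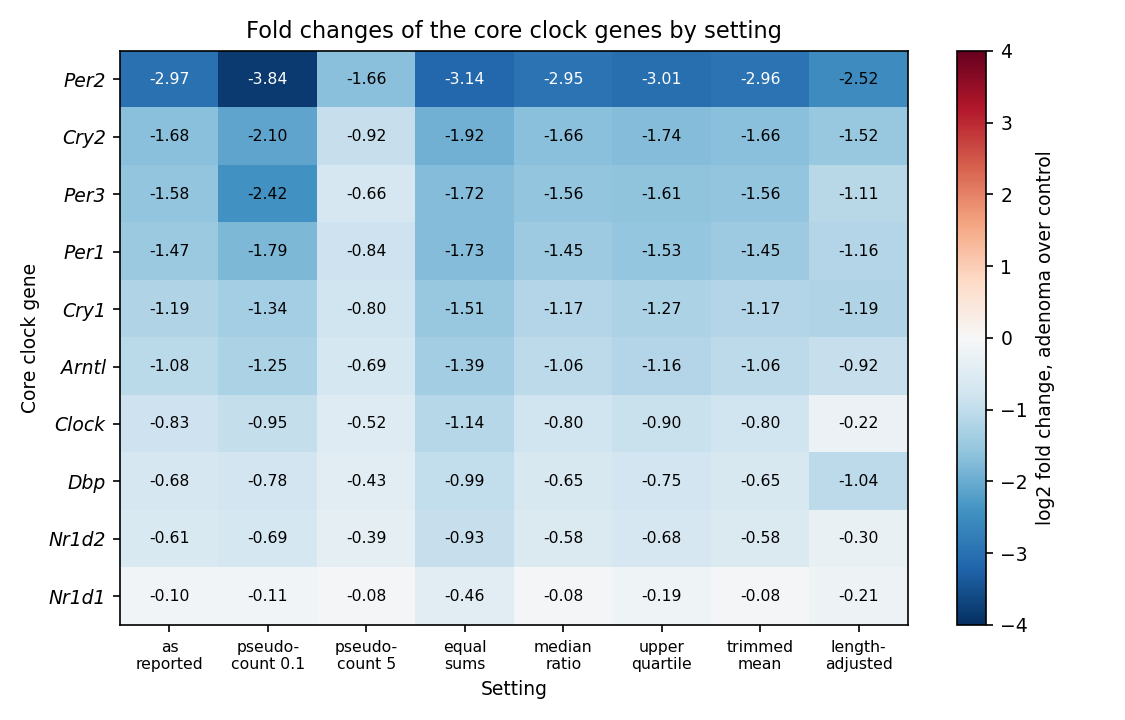
log2 fold change (adenoma over control) of each core clock gene (rows) under 8 settings (columns), from blue for lower to red for higher. Every cell is below 0; a pseudocount of 5 pulls Per3 to -0.66 and one of 0.1 takes it to -2.42, while Nr1d1 stays between -0.46 with equal sums and -0.08.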

How the data were processed

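Per the labels, total RNA was extracted with Trizol and pooled from 6 individuals a group, and each pool was sequenced once. The authors deposited 1 table of RPKM values for 35529 genes; which aligner, counter and annotation they used is not given in the sources used here, and the submitters' processing notes name only GRCh37, a human assembly, although the symbols are those of mouse. Animals of 1 pool are not replicates, so no test between groups was made.

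Library totals came from microRNAs and snoRNAs that have a single exon and a RefSeq length, where the most frequent product of RPKM and length is 1 read. They were estimated at 33174626 for the adenoma pool, from 22 genes at 1 read, and 29548883 for the control pool, from 27. With these totals, 72% of 200 such genes in the adenoma pool and 70.9% of 182 in the control pool had whole reads. All read counts and counting intervals rest on these estimates. For each gene the ratio of its 2 RPKM values then gave the ratio of reads as a simple fraction, and the length as the whole number nearest to a curated RefSeq mRNA. This worked for all 10 core clock genes, which had 129 to 1041 reads in the adenoma pool and 377 to 2322 in the control pool, and for 81 of 145 listed genes; the others use the longest GENCODE M21 transcript. Some reads are fractional and were rounded for the intervals.

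The log2 fold change used a pseudocount of 1 and genes that reached 1 RPKM in one pool or both, and understates the change of low genes. Length adjustment subtracted the median over 20 bins of longest GENCODE transcript, fitted on mRNA genes. Steps were checked on simulated data. Python 3.11.15, numpy 2.4.6, pandas 2.3.3, scipy 1.17.1 and matplotlib 3.10.9 were used. Members and gene lists were chosen with earlier results of these data known. All core and partner genes of the lists are named, and a further partner gene is not reported here. Named of each other pathway list are the 4 largest absolute log2 fold changes, the most abundant in the control pool and the largest past 2-fold in the opposite direction; cell type lists give markers at 0 and abundant ones. Other settings were a pseudocount of 0.1 or 5, a filter at 5 RPKM or none, 4 scalings, length adjustment, mRNA genes alone and thresholds of 1.5-fold and 4-fold; length adjustment with recovered lengths was added after seeing the data.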

Additional observations from a re-analysis of the deposited data

How the results depend on the processing

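No paired analysis was possible because each group holds 1 pool. With a pseudocount of 5, 1 of the 10 core clock genes (Per2) was at least 2-fold lower in place of 6 and their median log2 fold change was -0.67 in place of -1.14; 11 other pathway genes were lower and 2 higher, in place of 19 and 4, while 3.96% of all genes were lower and 7.93% higher. At the 4-fold threshold 1 core gene was lower, and 7 pathway genes were lower and 0 higher (1.08% and 2.02% of all genes); at the 1.5-fold threshold 33 pathway genes were lower and 7 higher (24.6% and 25.7% of all genes). Equal sums gave a core median of -1.45 and 2 pathway genes higher, and 2 were also higher with the 5 RPKM filter and with length adjustment, using either the longest GENCODE or the recovered lengths. Equal sums moved the median of all genes by -0.32 and the share of higher genes among those past 2-fold to 27.7%, in place of 56.1%; with length adjustment that share was 33.7% and with mRNA genes alone 44.3%, while the other scalings stayed between 49.4% and 58.3%. Under the remaining settings 0 core genes were higher. The number of core genes lower was 5 with the 5 RPKM filter, which Per3 did not pass, beside 13.2% of all genes. It was 7 with equal sums and 7 with recovered lengths, beside 19.1% and 11.2%. At the 1.5-fold threshold it was 9, beside 24.6%. Elsewhere it was 6, beside shares from 5.09% with no filter to 17.3% with a pseudocount of 0.1. The causes were not tested. Of pathway genes past the filter, the sign depended on the scaling or length adjustment for 1 of 7 partners, 5 of 23 regulators and 3 of 11 outputs. It did so for 0 of 7 PAR bZIP targets and 2 of 12 genes of the glucocorticoid list. With 1 library a group, counting error is the only error these data can give.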
